A study of Homo sapiens with 6 samples.

Results

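This account follows 8 genes for basic helix-loop-helix (bHLH) transcription factors, BHLHA15, MSC, BHLHE40, BHLHE41, HES1, TCF4, TCF12 and TCF3, out of 16330 genes in the deposited tables. They were chosen by name, with earlier results of the same comparison known, so the difference of each between the groups is given as a description and is not a test. The study used HN12, an established line from a human squamous cell carcinoma of the head and neck, grown in medium with serum. Cultures received the solvent DMSO (Control, 3 libraries) or CPI-613 (3 libraries) for 24 h, at a dose that is not given in the sources used here. CPI-613, also called devimistat, is a lipoate analogue directed at the mitochondrial pyruvate and 2-oxoglutarate dehydrogenase complexes. Total RNA was sequenced, and whether the 3 libraries of a group came from separate cultures is not stated. The p-values below thus rest on the spread of these 6 libraries alone, and that spread may be technical.

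A bHLH protein binds DNA as a dimer, with the basic stretch of each partner reading one side of a short site of the form CANNTG, the E-box. The E proteins TCF3, TCF4 and TCF12 are broadly expressed and pair with tissue-restricted partners such as BHLHA15 and MSC. ID proteins, which have the helix-loop-helix but no basic stretch, take E proteins out of DNA binding. HES1, BHLHE40 and BHLHE41 belong to a branch of repressors that dimerise among themselves. HES1 is the classical target of Notch signalling, and BHLHE40 and BHLHE41 (DEC1 and DEC2) repress genes of the circadian clock. BHLHA15 (MIST1) is known from cells specialised in secretion, such as pancreatic acinar cells and plasma cells, where XBP1 of the unfolded protein response is reported to act upstream of it. MSC (musculin, ABF-1) is a repressor described in muscle precursors and activated B cells. The gene TCF4 here is the E protein, not the Wnt effector TCF7L2 that shares this name in older writing.

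The library totals ran from 11529373 to 15485053 estimated counts, and 12269 to 12683 genes had at least 10 counts in a library. The labelled cell type was visible in all libraries: 8 squamous markers, among them KRT5, KRT17 and TP63, summed to 7110 to 10473 CPM (counts scaled to a common library total) in Control and 4759 to 10703 CPM with CPI-613. Of 11 plasma cell and acinar markers, the cell types best known for BHLHA15, 5 had a row and none exceeded 8 counts in any library. These 5 summed to 0.229 to 0.627 CPM in Control and 0.310 to 0.856 CPM with CPI-613. Of 6 leukocyte markers 3 had a row, summing to 0.688 to 1.55 and 0.542 to 1.54 CPM. The 3 endothelial markers summed to 1.22 to 2.51 and 0.214 to 0.542 CPM, with at most 14 counts in a library. Of 6 fibroblast and muscle markers 3 had a row, summing to 44.9 to 51.9 and 44.8 to 46.1 CPM. In RNA from bulk cultures, fewer cells with a transcript and less of it per cell cannot be told apart.

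The stretch of 250 bases before the RefSeq transcription start is shown for 4 of the genes, because these windows hold, or lack, the short sites through which bHLH factors and their regulators are described to act. In BHLHA15, BHLHE40 and BHLHE41 the capitals mark every CANNTG. In HES1 they mark TGGGAA, the core of the site bound by the Notch partner RBPJ, and CACNAG, the N-box bound by HES factors, on either strand. Sequences are from RefSeq (GRCh38.p14), given 5′ to 3′ on the strand of the gene: BHLHA15 at chr7:98211189-98211438 (plus strand), BHLHE40 at chr3:4979187-4979436 (plus), BHLHE41 at chr12:26125038-26125287 (minus) and HES1 at chr3:194135898-194136147 (plus).
BHLHA15: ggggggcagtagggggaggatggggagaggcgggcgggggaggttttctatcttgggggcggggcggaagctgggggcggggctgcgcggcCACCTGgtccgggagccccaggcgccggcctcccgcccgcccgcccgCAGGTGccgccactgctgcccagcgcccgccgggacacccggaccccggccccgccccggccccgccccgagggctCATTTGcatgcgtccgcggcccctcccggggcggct
BHLHE40: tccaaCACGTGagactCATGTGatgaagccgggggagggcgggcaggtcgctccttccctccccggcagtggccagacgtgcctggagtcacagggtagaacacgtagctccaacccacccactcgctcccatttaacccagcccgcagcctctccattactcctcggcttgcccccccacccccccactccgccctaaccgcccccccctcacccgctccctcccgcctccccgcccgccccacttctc
BHLHE41: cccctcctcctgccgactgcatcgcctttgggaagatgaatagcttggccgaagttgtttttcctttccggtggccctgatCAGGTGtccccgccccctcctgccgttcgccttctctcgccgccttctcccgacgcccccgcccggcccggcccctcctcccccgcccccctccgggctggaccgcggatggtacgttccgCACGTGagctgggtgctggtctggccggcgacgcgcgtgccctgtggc
HES1: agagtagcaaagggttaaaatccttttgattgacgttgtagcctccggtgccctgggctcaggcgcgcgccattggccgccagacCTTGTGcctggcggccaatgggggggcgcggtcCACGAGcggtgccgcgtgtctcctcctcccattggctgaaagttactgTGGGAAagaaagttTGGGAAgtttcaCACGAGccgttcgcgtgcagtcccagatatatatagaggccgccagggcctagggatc

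BHLHA15 held 3 matches to CANNTG, and BHLHE40 and BHLHE41 held 2 each, on a background where 61.8% of 34788 distinct windows of this length held at least 1. The form CACGTG, which is one case of CANNTG and reads the same on both strands, is the site that clock factors and BHLHE40 prefer. It occurred once in BHLHE40 and once in BHLHE41, against 6.31% of all windows, and not in the windows of BHLHA15, HES1 or TCF3. Of the several starts listed for TCF4 and for TCF12, 1 each also held it. The HES1 window held 2 TGGGAA and 3 CACNAG, which 20.8% and 32.01% of all windows contained, and no CANNTG. The XBP1 element TGACGTGG, found in 0.618% of windows, was not among the letters of the BHLHA15 window. A match describes letters only. The table had an entry for 7 of the 8 genes. No entry was matched for MSC.

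Per length, the 8 genes spanned a wide range of levels. In FPKM (counts scaled by transcript length and library total), the Control order was BHLHE40 at 48.4 ± 20.9 (SD, n = 3), TCF3 at 29.5 ± 3.29, HES1 at 19.0 ± 2.73, TCF12 at 4.31 ± 1.21, MSC at 2.10 ± 0.240, BHLHE41 at 0.643 ± 0.282, BHLHA15 at 0.407 ± 0.156 and TCF4 at 0.377 ± 0.110. The ranges of BHLHE40 and TCF3 overlapped, as did those of BHLHE41 with BHLHA15 and of BHLHA15 with TCF4. The other neighbours were apart in every library. With CPI-613, MSC at 16.8 ± 3.45 FPKM overlapped HES1 at 13.1 ± 1.03, and BHLHA15 at 4.29 ± 1.02 overlapped TCF12 at 3.35 ± 3.01. TCF4 at 0.110 ± 0.123 and BHLHE41 at 0.0767 ± 0.0862 stood last and overlapped. BHLHE40 at 49.8 ± 3.95 and TCF3 at 32.6 ± 7.76 remained first and second. In Control the mean FPKM of BHLHA15 exceeded that of 24.0% of all genes in the table and that of MSC 36.3%. With CPI-613 these shares were 47.8% and 71.7%.

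**Figure D1:**
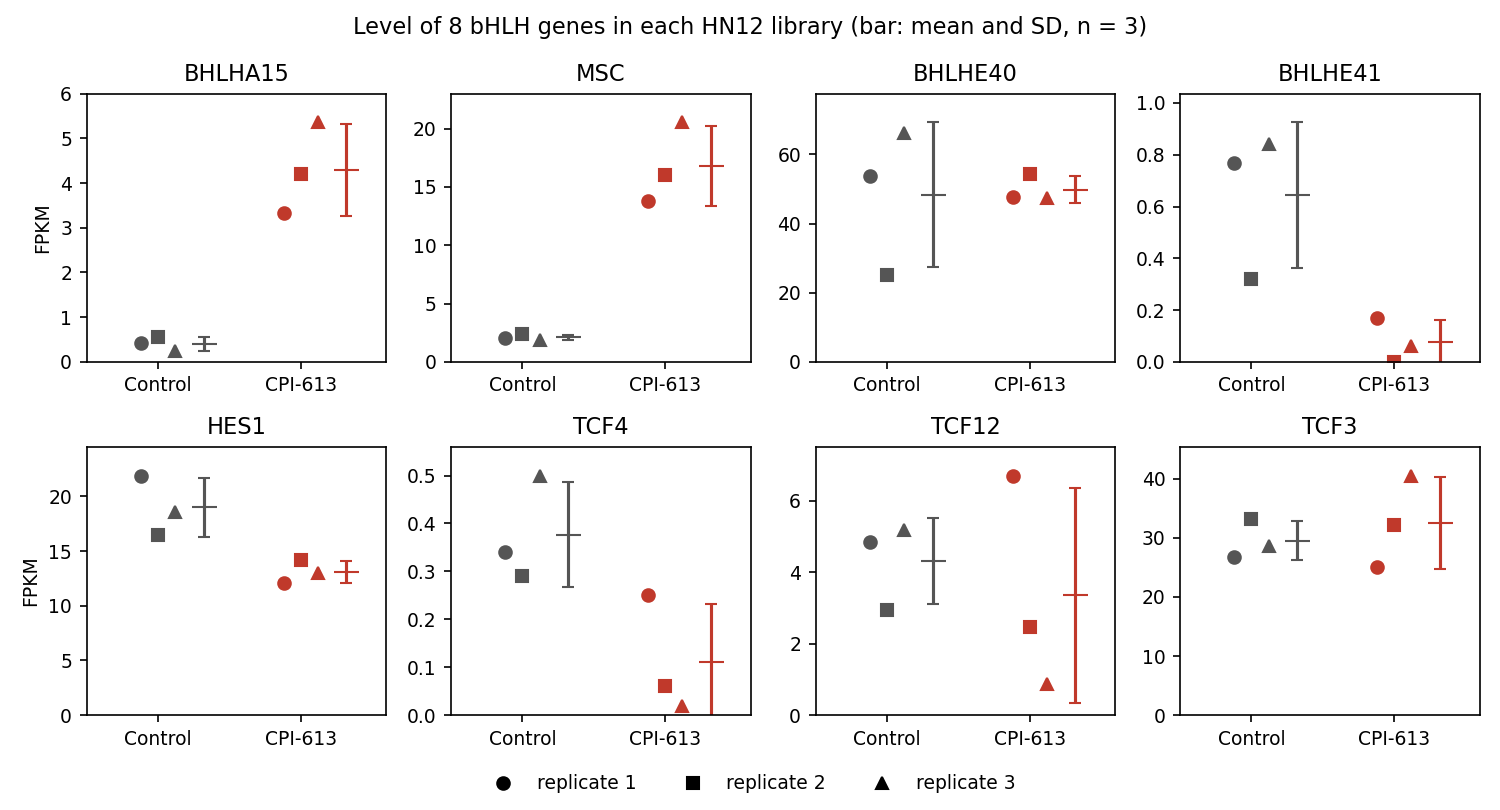
Each panel plots FPKM (y axis, from 0, with its own scale) of 1 gene in 3 Control (grey) and 3 CPI-613 (red) libraries, the symbol shape giving the replicate number and the bar the mean and SD. BHLHA15 and MSC stand higher in all 3 CPI-613 libraries (3.32 to 5.36 and 13.8 to 20.5 FPKM) than in Control, BHLHE41, HES1 and TCF4 stand lower, and BHLHE40, TCF12 and TCF3 overlap.

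All 8 genes passed the filter on low counts and entered the fit. BHLHE41 reached the filter's level of 0.770 CPM in 3 Control and 0 CPI-613 libraries, TCF4 in 3 and 1, and BHLHA15 in 2 and 3, so the passage of these genes leaned on the group where they were high. By edgeR at an adjusted p under 0.05 over all genes, 2 of the 8 were called higher with CPI-613, none lower, and 6 were not called. Over all 12655 genes tested, 1.94% were called higher and 1.23% lower. In 2 members every CPI-613 library lay above every Control library, and in 3 every one lay below. Over all genes these shares were 11.9% and 9.18%. The median log2 fold change of the 8 was -0.00 and that of all genes 0.02. Since this comparison was in view when the genes were chosen, nothing is read from these counts.

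Of the tissue-restricted partners, BHLHA15 (gene ID 168620, chromosome 7 at 98211439 to 98215457, GRCh38) had 15, 21 and 9 counts in Control replicates 1 to 3 and 135, 177 and 251 counts in CPI-613 replicates 1 to 3. Scaled, this is 1.18, 1.63 and 0.688 CPM against 9.63, 13.6 and 19.4 CPM. The lowest CPI-613 library stood well above the highest Control library. The mean rose 12.2-fold, from 1.16 ± 0.472 to 14.2 ± 4.93 CPM (SD, n = 3), and the log2 fold change was 3.60 (SE 0.44). TECPR1, a gene of autophagy next to it on the opposite strand, measured 18.2 ± 0.895 and 21.7 ± 3.65 CPM. Its GENCODE 29 exons share 0 bases with those of BHLHA15, but that model of BHLHA15 is 796 bases long, while the deposited counts and FPKM imply a counted transcript of about 3029 bases. Overlap with the rest of the counted transcript was not tested.

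MSC (gene ID 9242) had 40, 51 and 40 counts in Control and 318, 385 and 547 counts with CPI-613. This is 3.14, 3.96 and 3.06 CPM against 22.7, 29.6 and 42.4 CPM. Again no CPI-613 library came near a Control library. The mean rose 9.32-fold, from 3.38 ± 0.501 to 31.5 ± 9.98 CPM, and the log2 fold change was 3.22 (SE 0.33). Of the 2113 exon bases of MSC, 414 overlap the antisense gene MSC-AS1, and whether reads were counted by strand is not given in the sources used here. Reads from both genes cannot be told apart there.

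Within the CPI-613 group both genes were lowest in replicate 1 and highest in replicate 3, a span of 2.02-fold for BHLHA15 and 1.87-fold for MSC. Libraries of this group also differed along the GC content of transcripts. In the fifth of genes with the lowest GC content, the median deviation from the group mean was 0.90 in CPI-613 replicate 1, 0.06 in replicate 2 and -0.97 in replicate 3 on the log2 scale. In the fifth with the highest GC content it was -0.43, 0.00 and 0.43. The GENCODE 29 model of BHLHA15 has a GC content of 71.0% and that of MSC 62.7%, above 99.3% and 90.7% of the genes tested. For BHLHA15 this covers only the short model named above, so its adjusted values are less certain than those of MSC. After the dependence on GC content and length had been taken out library by library, MSC stood at 1.88, 1.91 and 1.89 log2 CPM in Control and at 4.91, 4.81 and 4.86 with CPI-613. BHLHA15 stood at 0.60, 0.69 and 0.01 against 3.82, 3.66 and 3.57. The spread of both genes within the CPI-613 group nearly closed, while the log2 fold changes were 3.02 (SE 0.15) for MSC and 3.36 (SE 0.24) for BHLHA15.

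The calls of both genes ended in the fit without this adjustment when Control replicate 1, Control replicate 3 or CPI-613 replicate 2 was left out. Their log2 fold changes then lay between 3.15 and 3.27 for MSC and between 3.33 and 3.64 for BHLHA15. In those fits edgeR called 0, 0 and 7 of all genes, while DESeq2 without the same libraries still called both genes. With the adjustment both genes stayed called without any 1 of the 6 libraries. Since both were chosen with this comparison in view, these calls describe the fits and add no support for the difference.

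**Figure D2:**
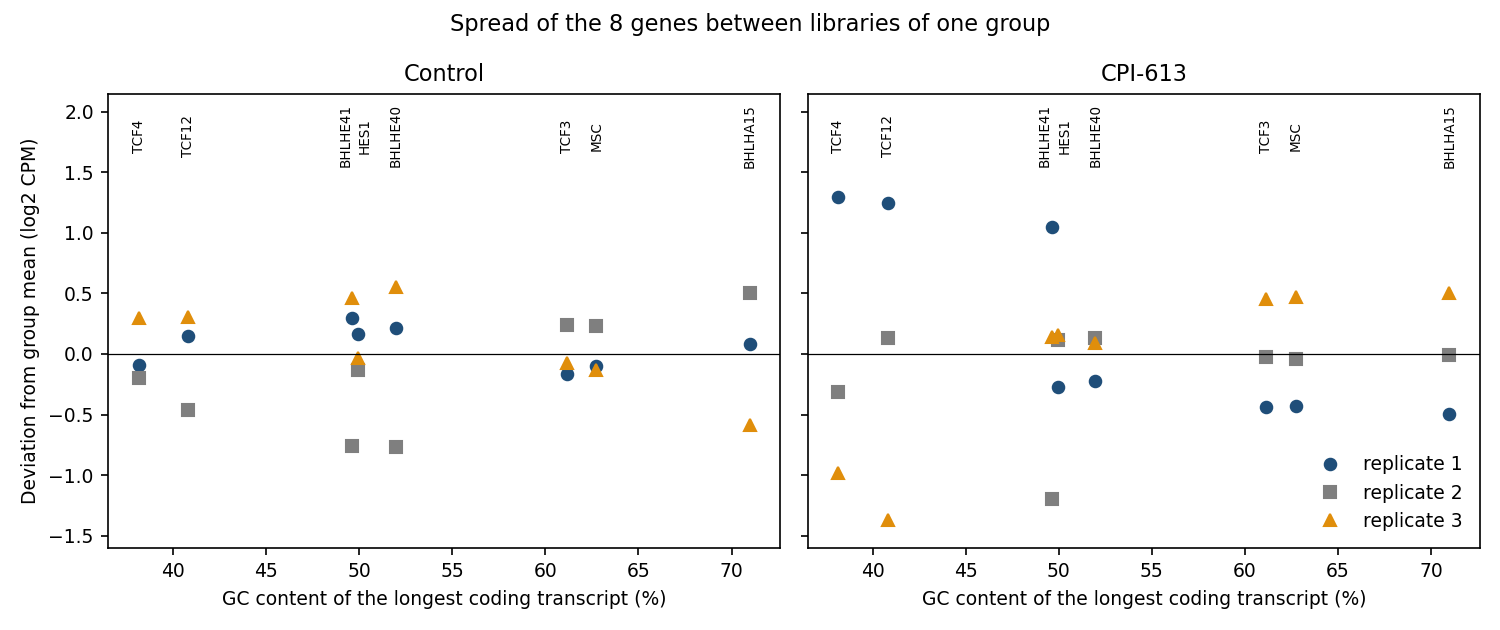
For each of the 8 genes, the y axis gives the deviation of a library from its group mean in log2 CPM and the x axis the GC content (%) of the longest coding transcript, with Control left, CPI-613 right and symbols for replicates 1 to 3. In the CPI-613 group, TCF4 and TCF12 at the low-GC end are highest in replicate 1 and lowest in replicate 3, and TCF3, MSC and BHLHA15 at the high-GC end are the reverse.

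The genes whose course over the 6 libraries was most like that of BHLHA15 were KCNG1, a potassium channel subunit, TRIB3, a pseudokinase of the ATF4 stress response, and PCK2, a mitochondrial gluconeogenic enzyme. Likeness was the root mean square difference of mean-centred log2 CPM over 6 libraries, and it was 0.25, 0.28 and 0.28 among 12649 genes compared. MSC had rank 4 in this order, at 0.28. For MSC the nearest were TRIB3 at 0.13, KIF21B, a kinesin, at 0.19, and KCNG1 at 0.20, among 12093 genes. Mean CPM in the 2 groups was 36.2 ± 10.7 and 301 ± 99.8 for TRIB3 and 5.69 ± 2.03 and 50.3 ± 9.41 for KCNG1. These 6 libraries form 2 groups, so the measure mostly picks genes with a similar difference between them.

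Of 4 genes of the unfolded protein response, 2 were called higher and 2 were not called, where 1.94% of all genes were called higher. These are XBP1, described upstream of BHLHA15, and the sensors ERN1, ATF6 and EIF2AK3. All 4 were chosen with earlier results of these data known, so nothing is read from this count. XBP1, the transcription factor of the unfolded protein response, went from 142 ± 16.8 to 472 ± 78.1 CPM (log2 fold change 1.73, SE 0.20). ERN1, the sensor that splices XBP1 RNA, went from 24.7 ± 1.10 to 82.6 ± 6.64 CPM (1.74, SE 0.18). Both were called by edgeR (adjusted p = 0.00940 and 0.00719). Both calls ended without Control replicate 1, Control replicate 3 or CPI-613 replicate 2, with log2 fold changes between 1.66 and 1.77. In those fits edgeR called 0, 0 and 7 of all genes, while DESeq2 without the same libraries still called XBP1 and ERN1. ATF6, the sensor that acts as a transcription factor, and EIF2AK3 (PERK), the sensor kinase, were not called, at 70.1 ± 7.96 against 90.04 ± 11.2 and 20.5 ± 5.24 against 24.2 ± 11.4 CPM. Of 5 tested genes reported as BHLHA15 targets in secretory cells, none was called by edgeR, where 3.17% of all genes were. An unadjusted p under 0.05 was found for 1, where 14.4% of all genes had one. DESeq2 called 1 (all genes: 7.05%), the GC and length adjustment 1 (all genes: 11.6%) and limma-voom 0. Of the 5, the vesicle GTPase RAB3D and the calcium pump ATP2C2 had the highest levels, at 117 ± 14.3 against 141 ± 51.2 and 31.0 ± 12.2 against 29.5 ± 6.04 CPM. The gene behind these calls was RAB26, another vesicle GTPase, named after its value was seen. It was lower in every CPI-613 library, at 8.99 ± 1.85 against 22.3 ± 6.13 CPM (log2 fold change -1.31, SE 0.30). The median log2 fold change of the 5 was 0.27.

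Of the repressors, BHLHE40 (gene ID 8553, chromosome 3 at 4979437 to 4985323) stood at 142, 71.6 and 179 CPM in the Control libraries and 133, 170 and 166 CPM in the CPI-613 libraries. The groups overlapped, and Control replicate 2 was the lowest of all 6. The log2 fold change was 0.26 (SE 0.33). It turned to -0.06 without Control replicate 2 and reached 0.55 without Control replicate 3.

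BHLHE41 (gene ID 79365, chromosome 12 at 26120030 to 26125037), its close relative, had 31, 14 and 36 counts in Control and 8, 0 and 3 counts with CPI-613. All 3 CPI-613 libraries lay below Control. The means were 2.09 ± 0.883 and 0.268 ± 0.287 CPM. The log2 fold change, -2.89 (SE 0.79), was not called by edgeR. DESeq2, which called 7.05% of all genes, called it. So did edgeR with the GC and length adjustment (-2.95, SE 0.72) and edgeR without CPI-613 replicate 1, where it was -4.06. With 11 counts in the whole CPI-613 group, the size of the difference is loosely fixed. Of its 3948 exon bases 162 overlap SSPN on the other strand, which measured 1.99 ± 0.560 and 0.980 ± 0.696 CPM.

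HES1 (gene ID 3280, chromosome 3 at 194136148 to 194138732) stood at 26.4, 21.4 and 23.1 CPM in the Control libraries and 15.48, 20.4 and 20.9 CPM in the CPI-613 libraries. The groups did not overlap, but the gap between the lowest Control and the highest CPI-613 library was small. The log2 fold change was -0.32 (SE 0.24), and -0.46 (SE 0.16) with the GC and length adjustment, called in neither. It was below 0 in all 31 alternatives.

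Of the E proteins, TCF3 (gene ID 6929, chromosome 19 at 1609292 to 1652615), which encodes E12 and E47, stood at 87.4, 116 and 93.1 CPM in the Control libraries and 89.9, 120 and 167 CPM in the CPI-613 libraries. The groups overlapped: CPI-613 replicate 1 lay within the Control range, replicate 2 narrowly above it and replicate 3 well above it. The log2 fold change was 0.34 (SE 0.26), with 0.09 without CPI-613 replicate 3 and 0.21 (SE 0.13) when adjusted for GC content and length.

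TCF12 (HEB; gene ID 6938, chromosome 15 at 56918090 to 57291310) stood at 22.5, 14.7 and 25.1 CPM in the Control libraries and 32.2, 14.8 and 5.11 CPM in the CPI-613 libraries. The CPI-613 libraries thus lay on both sides of Control and spanned 6.29-fold. The log2 fold change was -0.26 (SE 0.60). Leaving out CPI-613 replicate 1 gave -1.06, and leaving out replicate 3 of that group gave 0.18. The GC content of its transcript, 40.8%, is low, and after the GC and length adjustment the difference was -0.09 (SE 0.25).

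TCF4 (E2-2; gene ID 6925, chromosome 18 at 55222185 to 55635957) was scarce, with 30, 28 and 41 counts in Control and 24, 6 and 3 counts with CPI-613. All CPI-613 libraries lay below Control, CPI-613 replicate 1 narrowly, at 1.71 CPM against 2.17 CPM in Control replicate 2. The log2 fold change was -1.64 (SE 0.63) and not called. It was -2.84 and called without CPI-613 replicate 1, and -1.39 (SE 0.33) and called when adjusted for GC content and length. With that adjustment 2 of the 8 genes were called higher and 2, BHLHE41 and TCF4, lower, where 6.62% and 5% of all genes were.

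**Figure D3:**
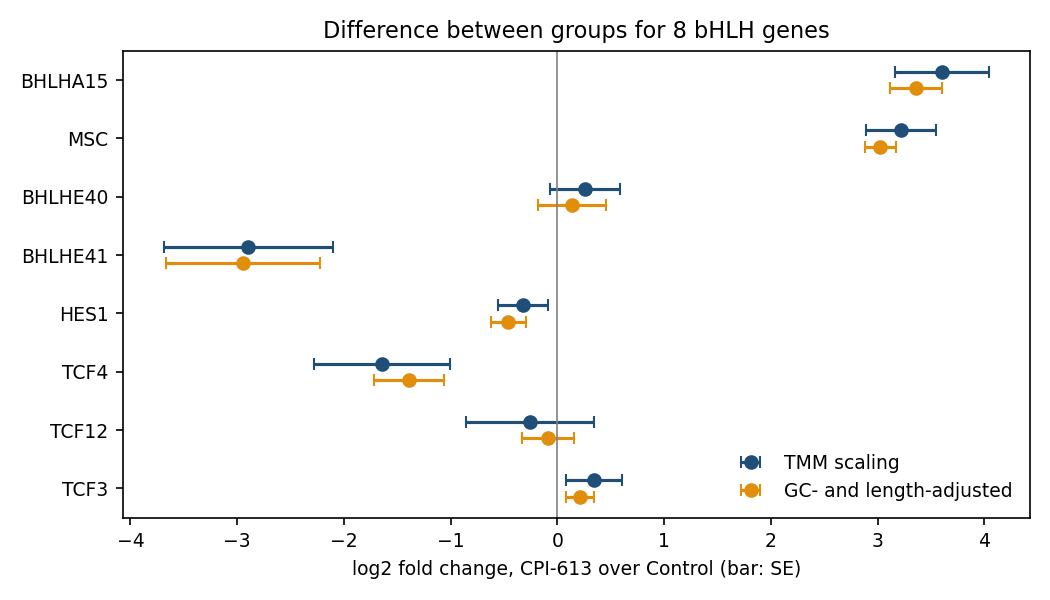
The x axis gives the log2 fold change of CPI-613 over Control for the 8 genes, with its SE as a bar, from the fit with TMM scaling (blue) and from the fit adjusted for GC content and length (orange). BHLHA15 and MSC lie above 3 in both fits, BHLHE41 near -2.9 in both, and the SE of TCF12 falls from 0.60 to 0.25.

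The transcripts within a gene gave a measure that the choice of the genes did not use. BHLHA15, MSC, BHLHE41 and HES1 have 1 transcript each in the table. BHLHE40 has 2, of which the main one took 94.8 ± 2.86% of the counts in Control and 92.9 ± 0.724% with CPI-613. For TCF12, with 21 transcripts, the most abundant took 26.5 ± 11.4% and 19.8 ± 11.4%. For TCF3, with 22, it took 16.6 ± 2.05% and 16.9 ± 3.60%. For these 3 genes in order, an exact two-sided permutation test over 3 against 3 libraries gave p = 0.4, 0.5 and 1. Adjusted by Benjamini-Hochberg over the 3 genes, these were 0.75, 0.75 and 1. The smallest p this design allows is 0.1. TCF4 averaged 22.0 counts over 29 transcripts, too few to divide. In TCF3, 16 of 22 transcripts averaged at least 10 counts and the most abundant took 12.8% to 19.7% of the counts in a library. Reads shared by similar transcript models make such shares uncertain.

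The E proteins can be set beside the ID proteins that bind them, as levels per length. TCF3, TCF4 and TCF12 summed to 34.2 ± 2.23 FPKM in Control and 36.0 ± 4.87 FPKM with CPI-613, and TCF3 made up 78.3% to 97.9% of this sum in each library. ID1, ID2 and ID3 summed to 619 ± 26.2 FPKM in Control and 122 ± 39.5 FPKM with CPI-613. The ratio of ID to E-protein FPKM was 17.7 to 18.5 in the Control libraries and 2.86 to 4.01 in the CPI-613 libraries. This is a ratio of RNA levels. The 3 ID genes were each called lower (edgeR, adjusted p = 0.00719 to 0.0274).

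Among the rest of the bHLH and HLH family, 72 of 101 listed genes had a count row and 49 were tested. Of these 3 were called higher, 7 lower and 39 not called, 20.4% called against 3.17% of all genes, with a median log2 fold change of -0.04. The lists were chosen with earlier results of these data known, so these shares are a description and not a test. Among class II genes ATOH8, an atonal relative known as a BMP target, had 0 counts in every CPI-613 library and 0.904 ± 0.113 CPM in Control. This is at least 4.004-fold lower, taking 3 counts per library as the floor (edgeR, adjusted p = 0.0206). It reached the filter's level in 3 Control and 0 CPI-613 libraries, so it was tested through the group where it was high, and its call has that limit. Besides ATOH8, 5 other class II genes were tested, TWIST1 and TWIST2 among them, and edgeR called none, while DESeq2 called 1, SCX, higher (named after its value was seen). The 10 calls fell to 0 without Control replicate 1, Control replicate 3 or CPI-613 replicate 2, where 13, 13 and 12 genes had an unadjusted p under 0.05 and DESeq2 called 9, 8 and 9. With the GC and length adjustment, 11 were called without each of these libraries.

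The relatives of HES1 went both ways. HES6, which inhibits HES1 activity, rose from 0.722 ± 0.185 to 6.65 ± 0.691 CPM (log2 fold change 3.19, SE 0.31), with 0.549, 0.699 and 0.917 CPM in the Control libraries against 6.13, 6.38 and 7.44 CPM. HEY1, a Notch and BMP target, rose from 0.983 ± 0.131 to 4.10 ± 1.24 CPM (2.05, SE 0.35). HES2 fell from 62.3 ± 18.1 to 14.3 ± 6.66 CPM (-2.13, SE 0.40). All 3 were called by edgeR (adjusted p = 0.00719, 0.0273 and 0.0391). HES6 reached the filter's level in 1 Control and 3 CPI-613 libraries, so it was tested through the group where it was high. HES4, HES7 and HEY2 were not called, at 21.0 against 20.4, 3.98 against 3.40 and 1.06 against 1.14 mean CPM.

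Of 21 bHLH leucine zipper genes 1 was called, which is 4.76%, near the 3.17% of all genes. This was MYC, a driver of growth and metabolism, from 131 ± 27.3 to 308 ± 34.3 CPM (1.23, SE 0.21). SREBF2, the activator of sterol synthesis, was higher in all CPI-613 libraries, at 236 ± 12.9 and 496 ± 138 CPM. The fit with TMM scaling did not call it, while DESeq2, the GC and length adjustment and edgeR with library size alone as the scaling did. Of 13 bHLH-PAS genes 2 were called, 15.4% against 3.17% of all genes. ARNT2, a dimer partner of PAS factors, fell from 11.0 ± 2.73 to 2.05 ± 0.901 CPM (-2.42, SE 0.41). AHRR, the repressor of the aryl hydrocarbon receptor, fell from 131 ± 21.5 to 47.0 ± 3.04 CPM (-1.48, SE 0.19). The adjusted p were 0.0274, 0.0279 and 0.0122 for MYC, ARNT2 and AHRR (edgeR).

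**Figure D4:**
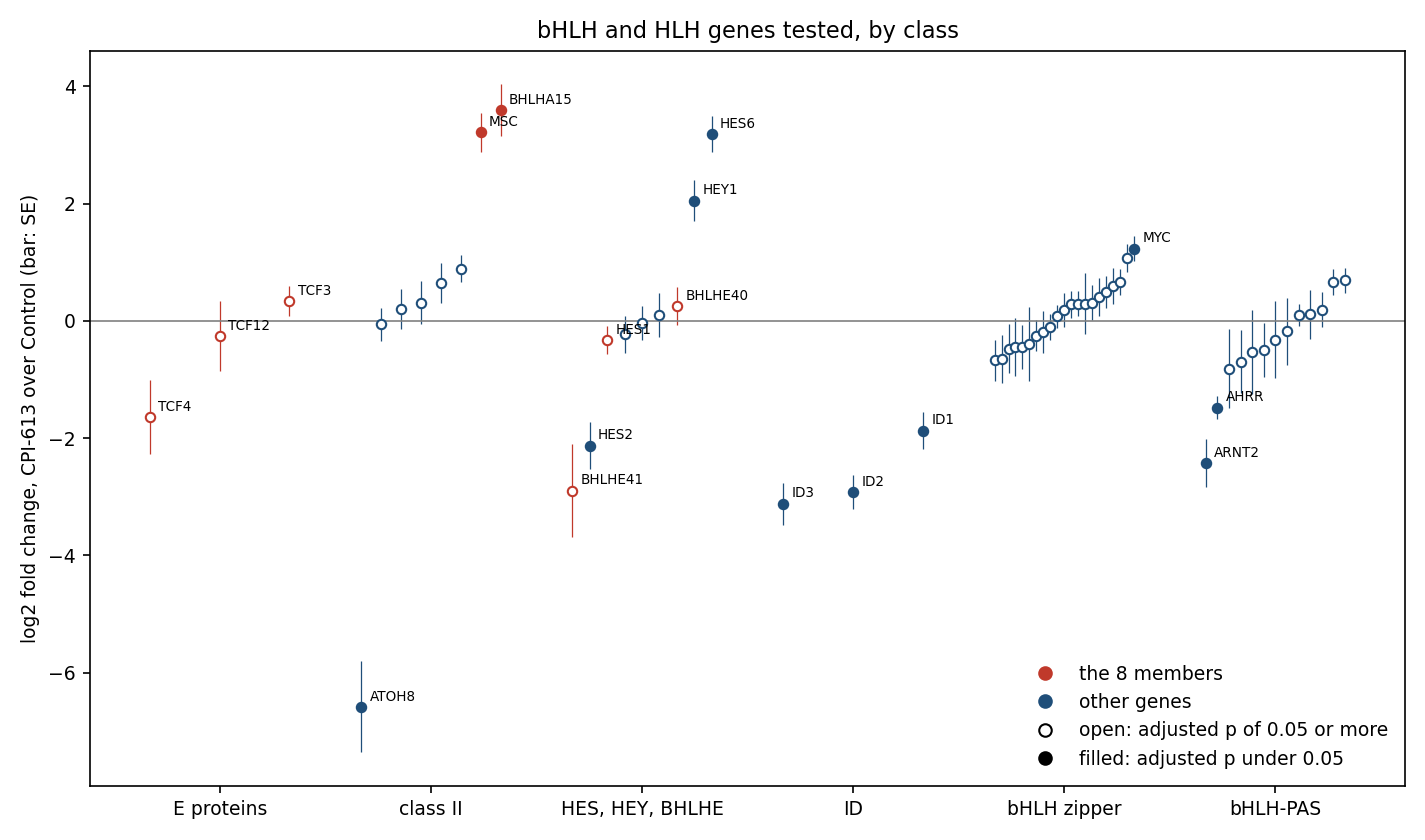
The y axis gives the log2 fold change of CPI-613 over Control with its SE for the 57 bHLH and HLH genes tested, grouped by class on the x axis, with the 8 members in red, other genes in blue, and filled symbols for an adjusted p under 0.05 by edgeR. Outside the members 3 genes (HES6, HEY1 and MYC) lie above 0 as filled symbols and 7 below, among them ID1, ID2 and ID3. The fitted value of ATOH8, which has 0 counts with CPI-613, is no measure of its size.

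The Notch pathway upstream of HES1 gave 1 call among 28 tested ligands, receptors and processing genes, with a median log2 fold change of 0.11. This is 3.57% of the list, near the 3.17% of all genes. The ligand DLL4 rose from 0.413 ± 0.0858 to 1.48 ± 0.137 CPM (1.82, SE 0.33, edgeR, adjusted p = 0.0363), on 4 to 6 counts per Control library and 19 to 21 per CPI-613 library. It reached the filter's level in 0 Control and 3 CPI-613 libraries, so it was tested through the group where it was high. DESeq2 did not call it, and of the 6 libraries CPI-613 replicate 1 was the only one without which edgeR still did. The ligand JAG1 was higher in every CPI-613 library, at 48.7 ± 10.8 and 119 ± 31.3 CPM, and the receptor NOTCH1 lower in every one, at 51.0 ± 5.49 and 32.9 ± 5.66 CPM. Neither was called by edgeR. DESeq2 called JAG1, its 1 call in the list, and the GC and length adjustment called both. With that adjustment 2 genes of the pathway were higher and 3 lower, where 6.62% and 5% of all genes were. None of 5 genes of the Groucho family (TLE1 to TLE5), to which corepressors of HES factors belong, was called by edgeR. Among all genes edgeR called 3.17% and DESeq2 7.05%, and 14.4% had an unadjusted p under 0.05. In this family there were 0 at that p, and DESeq2 and limma-voom called 0. The most abundant, TLE5 and TLE1, stood at 203 ± 18.5 against 212 ± 85.8 and 57.5 ± 9.03 against 78.8 ± 18.0 CPM.

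None of 17 tested clock genes was called by edgeR, where 3.17% of all genes were. The list was drawn up as genes that BHLHE40 and BHLHE41 act on or with, clock kinases included. An unadjusted p under 0.05 was found for 5 of the 17, where 14.4% of all genes had one. DESeq2 called 1 of the 17, where it called 7.05% of all genes, and limma-voom called 0. The most abundant were the clock kinases CSNK1E, at 193 ± 31.1 against 311 ± 59.2 CPM, and CSNK1D, at 182 ± 22.4 against 168 ± 45.7 CPM. The median log2 fold change of the 17 was 0.11. The clock output factor DBP was lower in every CPI-613 library, at 9.14 ± 2.14 and 3.12 ± 1.34 CPM, and PER1, a clock repressor, higher in every one, at 19.6 ± 0.609 and 32.3 ± 8.75 CPM. Both were named after their values were seen. With the GC and length adjustment 3 clock genes were called higher, CSNK1E and PER1 among them, and 1, DBP, lower, where 6.62% and 5% of all genes were.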

How the data were processed

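RNA-seq of 6 libraries was read from the 2 tables the authors deposited. The first holds estimated counts per RefSeq transcript (79031 transcripts of 16330 genes) as deposited, with reads shared by transcripts split between them. No source used here names its counter, annotation release or strand setting. The submitters' processing notes list CASAVA, STAR 2.5, HTSeq, edgeR 3.16.5, DESeq2 and hg38, with no role for each. The second holds deposited values per gene with no unit named. They were taken here as FPKM because, over 1139 genes with 1 transcript, these deposited values followed count over library total with a median deviation of 0.096%. A day and month stood in place of a number in 27 transcripts, which were left out; none belongs to the 8 members, and 1 belongs to BMAL1 of the clock list. The 53 genes without a symbol (0.0163% of counts) were left out.

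Counts were summed per gene, rounded and filtered with filterByExpr (minimum 10, total 15). Tests were run in edgeR 4.0.16 with TMM scaling (quasi-likelihood, two-sided, group as the one factor, Benjamini-Hochberg over 12655 genes, threshold 0.05). The SE is the log2 fold change over the square root of F. The GC and length adjustment used offsets from splines with 5 degrees of freedom on the longest coding GENCODE 29 transcript, known for 99.6% of genes tested. DESeq2 1.42.0 and limma 3.58.1 (voom) were alternatives. On simulated counts, 73.5% of 196 tested genes with a 4-fold change among 12527 were called, with 8 false calls among 152. The simulation drew each gene independently, with no trend along GC content, and left out genes with few counts. Its rates may thus not hold for these libraries. No library pair agreed within counting noise (chi-square per degree of freedom at least 3.85).

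The members and all gene lists were chosen with earlier results of these data known. By rule the text names all members, up to 4 called genes per list with the largest change or, in a list without a call, up to 2 with the highest CPM, XBP1 and ERN1, and the 3 genes nearest to BHLHA15 and to MSC, among genes whose mean log2 CPM is no more than 3 below the member's. Outside this rule, TECPR1, SSPN, ATF6, EIF2AK3, HES4, HES7, HEY2, SREBF2, SCX, TWIST1, TWIST2, JAG1, NOTCH1, RAB26, DBP and PER1 were added after their values were seen. Coordinates are from RefSeq for GRCh38 patch 14.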

Additional observations from a re-analysis of the deposited data

How the results depend on the processing

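BHLHA15 and MSC kept their direction in all 31 alternatives and were called in 26 of the 29 with a test, as were BHLHE41 in 7 and TCF4 in 4. The members were chosen with this comparison in view, so these counts describe the fits only. BHLHE40 and TCF12 changed sign in 3 each. Over all genes, 245 were called higher and 156 lower. DESeq2 called 492 and 400, the GC and length adjustment 838 and 633, and a threshold of 0.01 left 54 and 16. Library size alone as the scaling gave 229 and 258, so that 47.02% rather than 61.1% of calls were higher, and the median over all genes shifted from 0.02 to -0.17 on the log2 scale. Leaving out 1 library gave 0 to 465 higher and 0 to 435 lower with edgeR. With DESeq2 (chosen after seeing the data) the counts were 377 and 312 without Control replicate 2, 867 and 1595 without CPI-613 replicate 1, and 477 and 500 without CPI-613 replicate 3. Without Control replicate 1 or 3 edgeR called 0 genes, where 1064 and 1117 had p under 0.05 before adjustment and DESeq2 called 403 in each case. The 10 calls of the bHLH family became 3 at 0.01, 0 to 11 with edgeR without 1 library, and 20 with DESeq2 without CPI-613 replicate 1. The 1 Notch call became 5 with the GC and length adjustment, 0 at 0.01 and 0 to 2 without 1 library. DESeq2 gave 6, 0 and 5 without CPI-613 replicate 1, 2 and 3. The 0 clock calls became 4 with the GC and length adjustment, 1 with DESeq2, and 0 to 1 with edgeR without 1 library. DESeq2 gave 1, 8 and 1 without Control replicate 2, CPI-613 replicate 1 and CPI-613 replicate 3. The difference in the main TCF3 transcript's share ran from -1.18 to 2.27 percentage points without 1 library. The causes of these changes were not tested. Of 15 genes without a call by edgeR that the report gives as levels, 7 changed sign in at least 1 alternative. Depth limits BHLHE41, TCF4, ATOH8 and DLL4, which have few counts, and BHLHA15, HES6 and HEY1, which have few in Control. Over the 31 alternatives the log2 fold change ran from 1.91 to 3.91 for BHLHA15 and from 2.52 to 3.41 for MSC. The lowest value of each came from FPKM with 1 added.

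Deviations of same-numbered libraries from their group means correlated at 0.46, -0.10 and -0.61. Among the Control libraries, only replicate 1 correlated best with the library of its own number. Such deviations also ran along the GC content of transcripts, so they cannot decide whether the numbers pair the libraries. With a replicate block 109 genes were called higher and 81 lower (484 and 403 with the GC and length adjustment as well). The block left 6 calls in the bHLH family, 0 in the Notch list (2 with both) and 0 in the clock list (1 with both). BHLHA15 and MSC stayed called under the block.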
